A study of Mus musculus with 12 samples.

Results

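The lymphocyte receptor complex genes are 9 genes whose proteins form the receptor complexes by which T and B lymphocytes sense antigen: Cd3d, Cd3e, Cd3g, Cd4, Cd8a, Cd8b1, Lck, Cd79a and Cd79b. They were taken by symbol, and all 9 were found among the 20788 genes measured. The transcriptomes of testes from 8-week-old F1 males were sequenced in 4 groups of 3 libraries. Their sires were ICR males (the labels write IRC mouse) whose testes were injected with lentivirus at 4 weeks of age and which were then mated to untreated females. The knockdown group came from sires given a mixture of shRNAs against the long non-coding RNA lncRNA5251 in the LV3 vector, and the 3NC group from sires given the LV3 control. The overexpression group came from sires given lncRNA5251 in the LV5 vector, and the 5NC group from sires given the LV5 control. The series' own design text says instead that the F1 testes were transfected. lncRNA5251 has no row under that name, so its level was not analysed here. Whether each library stands for its own animal is not stated in the labels, and p-values therefore reflect library-to-library spread that may be technical.

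T cells carry an antigen receptor that cannot signal alone. The CD3 delta, epsilon and gamma chains flank it and carry the signal inward, CD4 or a CD8 alpha and beta pair binds the MHC molecule beside the antigen, and the kinase LCK, held on the tails of these coreceptors, phosphorylates the CD3 chains. CD4 marks helper and CD8 cytotoxic T cells. In B cells the surface antibody signals through CD79A and CD79B. In the testis, immune cells lie mainly in the interstitium outside the seminiferous tubules, where macrophages are the most common and lymphocytes are few.

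The libraries held 12719699 to 15771655 estimated reads, and 16388 genes were tested. The testis list (germ, Sertoli and Leydig cell genes) summed to 10100 to 13860 CPM (reads scaled to library size) in every library. 2 libraries stood apart: the white blood cell list, led by genes such as Ptprc, the phosphatase CD45, summed to 494 CPM in 3NC replicate 2 and 407 CPM in knockdown replicate 1, against 41.2 to 91.7 CPM in the other 10. In the same 2 libraries the testis list had its lowest sums, 10630 and 10100 CPM. These sums are mostly the germ cell genes Prm2, Prm1 and Tnp1 (mean 4930, 3000 and 1790 CPM). Its Leydig and Sertoli cell genes were not all low there. Star was at 188 and 116 CPM in the 2 libraries against 51.5 to 175 in the other 10, and Sox9 at 15.7 and 13.5 against 9.95 to 16.4. Because the 2 libraries that stood apart decide most values below, comparisons between groups are given with and without them. In such bulk samples, fewer cells of a type and less RNA per cell cannot be told apart.

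The CD3 genes lie together on chromosome 9 (GRCm38.p6, the same build as the mm10 of the labels). Cd3g (gene ID 12502, positions 44969572 to 44980431, minus strand) and Cd3d (12500, 44981769 to 44987052, plus strand) point away from each other with starts 1338 bases apart, and Cd3e (12501, 44998735 to 45009663, minus strand) follows. The 3 genes span 40092 bases. On chromosome 6, Cd8b1 (12526, 71322788 to 71337492, plus strand) ends 35935 bases before Cd8a (12525, 71373427 to 71379171, plus strand), and Cd4 (12504, 124864693 to 124888247, minus strand) lies far off on the same chromosome. Lck (16818) is on chromosome 4 (129548344 to 129573641, minus strand), Cd79a (12518) on chromosome 7 (24897497 to 24901858, plus strand) and Cd79b (15985) on chromosome 11 (106311341 to 106314562, minus strand). Cd3e overlaps an antisense gene, Gm48719, and a same-strand transcript, Gm48720, and Lck contains the microRNA gene Mir8119. The counting was not stated to use strand, so reads of Cd3e and Gm48719 cannot be told apart.

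The 250 bases before the start of Cd3g, Cd3d and Cd8a are shown because Cd3d and its neighbour Cd3g differ in the values given further on, while Cd3g and Cd8a had similar patterns. They are the RefSeq sequences, read 5′ to 3′ on the gene's own strand. Capitals mark the Ets core AGGAAG, the Runx core TGTGGT, the E-boxes CACCTG and CAGCTG, the box TATAAA and the element TGACGTCA, each searched on both strands.
Cd3g: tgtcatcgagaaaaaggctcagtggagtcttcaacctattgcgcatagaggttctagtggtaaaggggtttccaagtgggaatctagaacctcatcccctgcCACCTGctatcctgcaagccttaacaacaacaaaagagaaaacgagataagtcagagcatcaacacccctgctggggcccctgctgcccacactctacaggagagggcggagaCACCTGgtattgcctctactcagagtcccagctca
Cd3d: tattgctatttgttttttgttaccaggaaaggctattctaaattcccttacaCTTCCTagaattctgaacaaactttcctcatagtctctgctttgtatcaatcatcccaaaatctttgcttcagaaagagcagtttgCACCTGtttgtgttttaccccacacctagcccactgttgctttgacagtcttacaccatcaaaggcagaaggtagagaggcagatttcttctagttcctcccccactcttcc
Cd8a: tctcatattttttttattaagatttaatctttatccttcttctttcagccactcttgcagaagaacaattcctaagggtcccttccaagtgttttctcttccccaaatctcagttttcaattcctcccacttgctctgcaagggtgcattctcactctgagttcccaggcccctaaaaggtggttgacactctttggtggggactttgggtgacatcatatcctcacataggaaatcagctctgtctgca
They correspond to chr9:44980432-44980681 (minus), chr9:44981536-44981785 (plus) and chr6:71373177-71373426 (plus). The start used for Cd3d is a few bases inside the gene as annotated above, so the last bases of its sequence lie within the gene.

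Cd3g held CACCTG 148 and 35 bases before its start, and Cd3d held it 112 bases before. An Ets core stood 198 bases before the start of Cd3d. The Cd8a window held none of the motifs searched. Among 32851 such windows of all genes, 29.5% held the Ets core, 17.2% CACCTG, 14% the Runx core, 13% CAGCTG, 12.4% TATAAA and 1.55% TGACGTCA. Of the other members, Cd3e, Cd79a and Lck had an entry, and the Cd3e window reached further into the gene as annotated and is not shown. Cd4, Cd8b1 and Cd79b had none.

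Levels between genes were compared in FPKM, which divides reads by gene length and library size. Over the 12 libraries the median FPKM ran from Cd3d (7.17, range 5.23 to 10.72) through Lck (1.605, 0.9 to 9.03), Cd8b1 (1.53, 1.02 to 7.35), Cd4 (0.565, 0.48 to 3.19), Cd3g (0.46, 0 to 14.55), Cd8a (0.18, 0.07 to 9.06), Cd79b (0.095, 0 to 1.54) and Cd79a (0.085, 0 to 2.28) to Cd3e (0.08, 0 to 3.3). The ranges of every pair of neighbours in this order overlapped. Cd3d was the exception among the members: its highest library was 1.82 times its median CPM, whereas that ratio was 4.46 to 46.3 for the other 8. 3NC replicate 2 and knockdown replicate 1 were the 2 highest of the 12 libraries for 5 of the 6 tested members, all but Cd3d, and for 13.9% of all tested genes. Of the 3 members that were not tested this held for Cd3e and Cd79b but not for Cd79a. They held 85.3% of all Cd8a reads, 84.8% of Cd3e, 83.2% of Cd3g, 77.2% of Cd79a, 69.8% of Cd79b, 52.1% of Lck, 46.1% of Cd4, 42.5% of Cd8b1 and 25.1% of Cd3d.

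**Figure D1:**
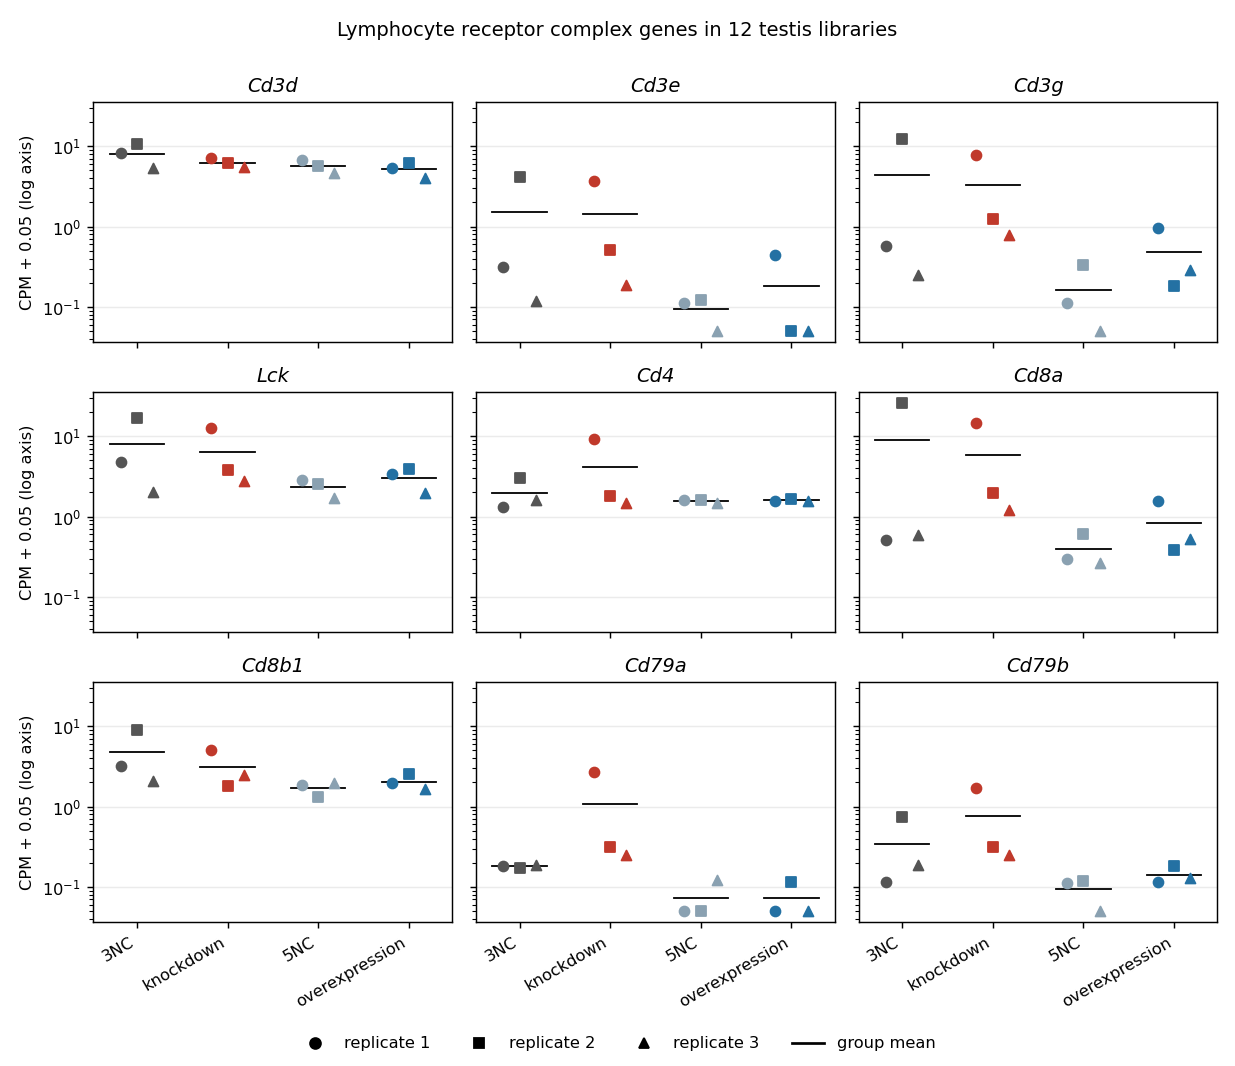
CPM of each of the 9 genes in every library, plotted as CPM + 0.05 on a log axis, with the 4 groups along the x axis, the marker shape giving the replicate and the black line the group mean. The square of 3NC and the circle of the knockdown group stand above the rest for most genes, while Cd3d stays between 3.967 and 10.63 CPM throughout.

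Cd3g, the CD3 gamma chain, had 8, 194 and 3 estimated reads in 3NC replicates 1 to 3 and 122, 18 and 11 in the knockdown libraries. It had 1, 4 and 0 reads in 5NC and 14, 2 and 3 in the overexpression libraries. Its CPM was 4.263 ± 6.751 (SD, n = 3) in 3NC, 3.217 ± 3.9 in the knockdown group, 0.1146 ± 0.1478 in 5NC and 0.4306 ± 0.4276 in the overexpression group. The spread within 3NC was thus larger than its mean, and the ranges of each pair of groups compared overlapped.

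Cd3e, the CD3 epsilon chain, followed the same libraries. It had 4, 66 and 1 reads in 3NC, 57, 7 and 2 in the knockdown group, 1, 1 and 0 in 5NC and 6, 0 and 0 in the overexpression group. Outside the 2 libraries that stood apart it never passed 7 reads, and it did not pass the low-count filter. A count of 0 was taken to allow up to 3 reads, a one-sided limit of about 0.2 CPM here (0.238 CPM in overexpression replicate 3), whereas the two-sided 95% Poisson interval of a count of 0 reaches 3.69 reads.

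Cd3d, the CD3 delta chain, behaved differently from its neighbours. It had 123, 171 and 78 reads in 3NC, 111, 91 and 80 in the knockdown group, 106, 80 and 64 in 5NC and 80, 91 and 50 in the overexpression group. No library was without it, and libraries with 0 to 4 reads of Cd3g still had 50 to 106 reads of Cd3d. In FPKM, Cd3d stood 5.45 to 116 times above Cd3g in 9 libraries, and Cd3g had none in 5NC replicate 3. In 3NC replicate 2 and knockdown replicate 1 the ratio was 0.737 and 0.851.

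The length that the deposited reads and FPKM imply for Cd3d also differed between libraries. It was 1046 bases in 3NC replicate 2 and 948 bases in knockdown replicate 1, and 752 to 833 bases in the other 10 (a calculation added after the data were seen). The ratio of longest to shortest, 1.391, was above that of 99.75% of 8034 well-covered genes, whose median was 1.021. In the GENCODE annotation Cd3d has transcripts of 1617, 286 and 299 bases. How the authors set the length, and which transcripts gave the reads, was not tested.

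**Figure D2:**
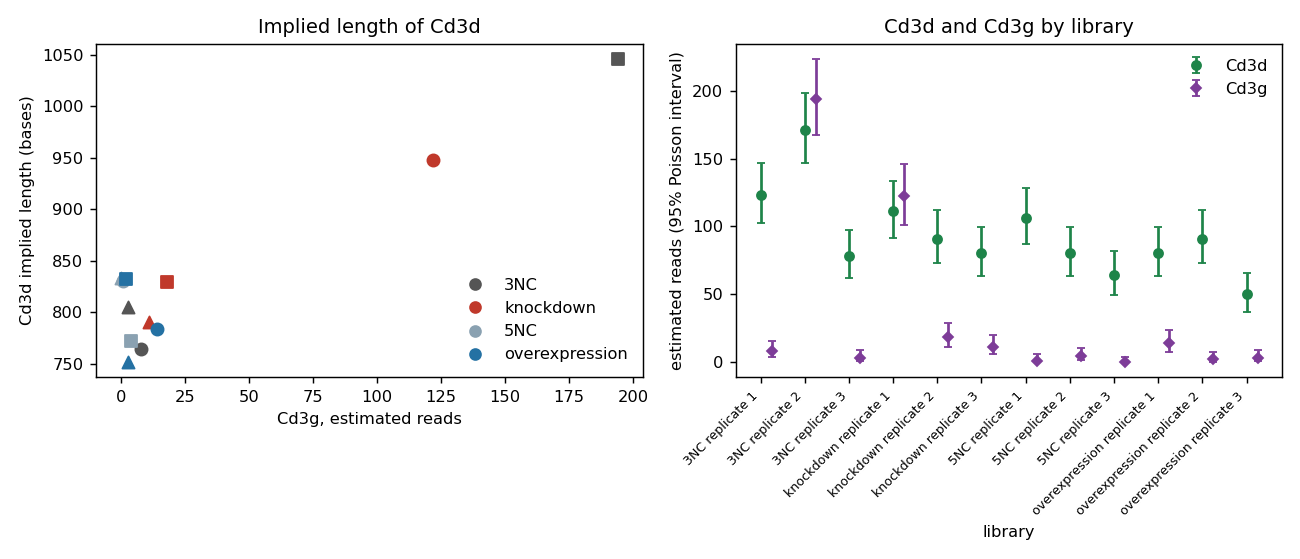
Left, the length implied for Cd3d by its reads and FPKM (bases) against the estimated reads of Cd3g, 1 point per library, with colours for groups and shapes for replicates as in the plot of levels. Right, estimated reads of Cd3d (circles) and Cd3g (diamonds) by library with exact 95% Poisson intervals, which cover counting error only; Cd3g reaches the level of Cd3d in 2 libraries.

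Lck had 71, 272 and 29 reads in 3NC, 196, 56 and 40 in the knockdown group, 45, 35 and 23 in 5NC and 50, 57 and 24 in the overexpression group. The kinase was thus read in every library, with a median of 42.5 reads in the 10 libraries other than the 2 high ones. Group means were 7.853 ± 7.956 CPM in 3NC, 6.271 ± 5.324 in the knockdown group, 2.305 ± 0.5966 in 5NC and 2.996 ± 0.9793 in the overexpression group (SD, n = 3 each).

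Cd8a, the CD8 alpha chain, varied most of all members. It had 7, 411 and 8 reads in 3NC, 227, 29 and 17 in the knockdown group, 4, 8 and 3 in 5NC and 23, 5 and 6 in the overexpression group. Its highest library was 46.3 times its median CPM. Cd8b1, which encodes the beta chain that pairs with it, had 47, 142 and 30 reads in 3NC, 79, 26 and 36 in the knockdown group, 29, 18 and 27 in 5NC and 29, 37 and 20 in the overexpression group. Cd8b1 stood at 0.81 times the FPKM of Cd8a in both high libraries and at 2.08 to 22.14 times in the other 10. The pair was therefore near equal only where the white blood cell list was high, and elsewhere Cd8b1 was read without a matching level of Cd8a.

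Cd4, the helper T cell coreceptor, was nearly level outside the 2 high libraries. It had 19, 47 and 23 reads in 3NC, 143, 26 and 21 in the knockdown group, 25, 22 and 20 in 5NC and 23, 24 and 19 in the overexpression group. The other 10 libraries lay between 19 and 26 reads. Cd8a was 8.63 times Cd4 in FPKM in 3NC replicate 2, 1.54 times in knockdown replicate 1 and 0.13 to 1.15 times in the rest.

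The B cell pair was near the limit of detection. Cd79a had 2, 2 and 2 reads in 3NC, 42, 4 and 3 in the knockdown group, 0, 0 and 1 in 5NC and 0, 1 and 0 in the overexpression group. Cd79b had 1, 11 and 2 reads in 3NC, 26, 4 and 3 in the knockdown group, 1, 1 and 0 in 5NC and 1, 2 and 1 in the overexpression group. The pair summed to 68 reads in knockdown replicate 1, 13 in 3NC replicate 2 and 1 to 8 elsewhere.

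The 2 high libraries were not alike. In CPM, knockdown replicate 1 had 3.1 times the Cd4 of 3NC replicate 2 (95% exact counting interval 2.21 to 4.4), 21.4 times the Cd79a (5.56 to 182, on 42 and 2 reads) and 2.4 times the Cd79b (1.15 to 5.39). It had 0.562 times the Cd8a (0.476 to 0.662), 0.566 times the Cd8b1 (0.424 to 0.75), 0.64 times the Cd3g (0.506 to 0.806), 0.66 times the Cd3d (0.515 to 0.843) and 0.733 times the Lck (0.607 to 0.884). For Cd3e the interval of 0.605 to 1.27 included an equal level. These ratios compare 2 libraries and not the conditions. Cd8a, Cd8b1, Cd3g, Cd3d and Lck were thus higher in 3NC replicate 2, and Cd4, Cd79a and Cd79b in knockdown replicate 1.

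Genes of other lists also differed between these libraries. Jchain, which joins secreted antibody units, was at 89.8 CPM in knockdown replicate 1 and 3.54 CPM in 3NC replicate 2, a ratio of 25.4 (19.5 to 33.7), and Pou2af1, a B cell coactivator, had a ratio of 7.18 (4.24 to 13). Gzmb and Gzma, proteases of cytotoxic granules, were at 25.8 and 16.4 CPM in knockdown replicate 1 and at 99.2 and 59.5 CPM in 3NC replicate 2. Not every gene of the B cell and cytotoxic lists went the same way. Ebf1 and Cr2 of the B cell lists were at 4.43 and 1.45 CPM in knockdown replicate 1 and at 5.41 and 2.73 CPM in 3NC replicate 2. Klrb1c and Eomes of the cytotoxic list were at 1.33 and 1.58 CPM in knockdown replicate 1 and at 0.808 and 1.06 CPM in 3NC replicate 2, on 25 reads or fewer. The macrophage list was mixed. Of its 12 genes, the interval of the ratio lay above 1 for 7, below 1 for 4 and on both sides for 1. Its 3 most abundant genes, Mpeg1, Mrc1 and Lyz2, had ratios of 0.829, 1.23 and 0.882, and the complement genes C1qa, C1qb and C1qc had 2.85, 2.2 and 2.44. The part of macrophages or other cells in the Cd4 level was not tested.

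Knockdown of lncRNA5251 was compared with its LV3 control to ask how the modified lineage differed. edgeR's quasi-likelihood test called none of the 6 members that passed the low-count filter, and 0% of all tested genes (0 of 16388, 924 at an unadjusted p under 0.05). Cd4 had the largest difference, 1.08 ± 0.6 on the log2 scale (SE, adjusted p = 0.764). The others lay between -0.61 and -0.32, with Cd8a at -0.61 ± 1.27 (95% interval -3.53 to 2.32) and Cd3g at -0.41 ± 1.22 (-3.21 to 2.4). None of the 6 had an unadjusted p under 0.05 in the fit of all libraries, and limma called none of the 6. DESeq2 called none of the 4 to which it gave a p, and gave none to Cd3g and Cd8a in any comparison. Without the 2 libraries Cd4 was at 0.16, Cd8a at 1.6 (edgeR unadjusted p = 0.0367, adjusted p = 0.904) and Cd3g at 1.38 (adjusted p = 0.904), so that the last 2 turned their sign. Cd79a, outside the filter, was higher in each knockdown library than in each 3NC library (42, 4 and 3 against 2, 2 and 2 reads). Of the tested genes, 11.3% showed such a separation in either direction. With no filter its estimate was 2.91 ± 0.99 (edgeR unadjusted p = 0.0123, adjusted p = 0.822).

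Overexpression was compared with the LV5 control. Here 0.311% of tested genes were called by edgeR (51, of which 34 were higher) and no member, in a comparison that did not include the 2 high libraries in its means, although they entered the low-count filter and the shared estimate of the spread. Cd3g was at 1.87 ± 1.99 (adjusted p = 0.786) and Cd8a at 1.18 ± 1.74 (adjusted p = 0.861), and without overexpression replicate 1, which had 14 and 23 reads of them, they were at 0.65 and 0.23, and without 5NC replicate 2 at 3.42 and 1.71. Lck was at 0.38 ± 0.75, Cd8b1 at 0.25 ± 0.54, Cd4 at 0.02 ± 0.63 and Cd3d at -0.14 ± 0.26. The interval of Cd4, -1.42 to 1.47, and that of Cd3d, -0.74 to 0.47, bound the size of a difference, whereas those of Cd3g and Cd8a reached 6.45 and 5.19. Without the 2 libraries the estimates were nearly the same with smaller errors, 1.88 ± 0.98 for Cd3g (adjusted p = 0.366) and 1.19 ± 0.63 for Cd8a (adjusted p = 0.378). None of the 6 had an unadjusted p under 0.05 in the edgeR fit of all libraries, and limma called none of the 6 (voom with quality weights put Cd3g at 2.6 ± 1.16, unadjusted p = 0.0437, adjusted p = 0.111) and DESeq2 none of the 4 it gave a p. In a fit of the 6 libraries of these 2 groups alone, Cd3g and Cd8a did not pass the low-count filter, so their estimates here rest on groups in which they are high.

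The 2 vector controls were compared with each other, in a contrast that shares the 3NC and the 5NC libraries with the comparisons above. edgeR called 0.128% of tested genes (21, of which 16 were lower in 5NC) and no member. All 6 tested members were lower in 5NC in the estimate. Cd3g was at -5.14 ± 1.72 (adjusted p = 0.338), Cd8a at -4.67 ± 1.62 (adjusted p = 0.358), Lck at -1.76 ± 0.74 (adjusted p = 0.439) and Cd8b1 at -1.48 ± 0.53 (adjusted p = 0.388). These 4 had an unadjusted p under 0.05 with edgeR, as did 1763 of all 16388 tested genes. Cd3d (-0.51 ± 0.26) and Cd4 (-0.34 ± 0.62) did not. DESeq2 called none of the 4 members to which it gave a p, and limma none of 6, while Cd3g and Cd8a were left out of a fit of these 2 groups alone by the filter. Without the 2 libraries the same 4 were at -1.63, -0.55, -0.52 and -0.62, and these values were the same without 3NC replicate 2 alone for Cd3g and Cd8a. Cd8b1 and Cd79a were lower in every 5NC library than in every 3NC library, a separation that 13% of tested genes showed in either direction. For Cd8b1 the 3NC libraries had 3.111, 8.824 and 2.026 CPM and the 5NC libraries 1.809, 1.266 and 1.932 CPM.

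The difference between the knockdown and the overexpression effect was called for 0.0244% of tested genes (4) and for no member, each with an adjusted p of 1. The estimates ran from -2.28 ± 2.33 for Cd3g to 1.06 ± 0.87 for Cd4, with Cd8a at -1.79 ± 2.15. Without the 2 libraries they ran from -0.56 (Cd8b1) to 0.41 (Cd8a, which turned its sign), with Cd3g at -0.5 and Cd4 at 0.14.

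**Figure D3:**
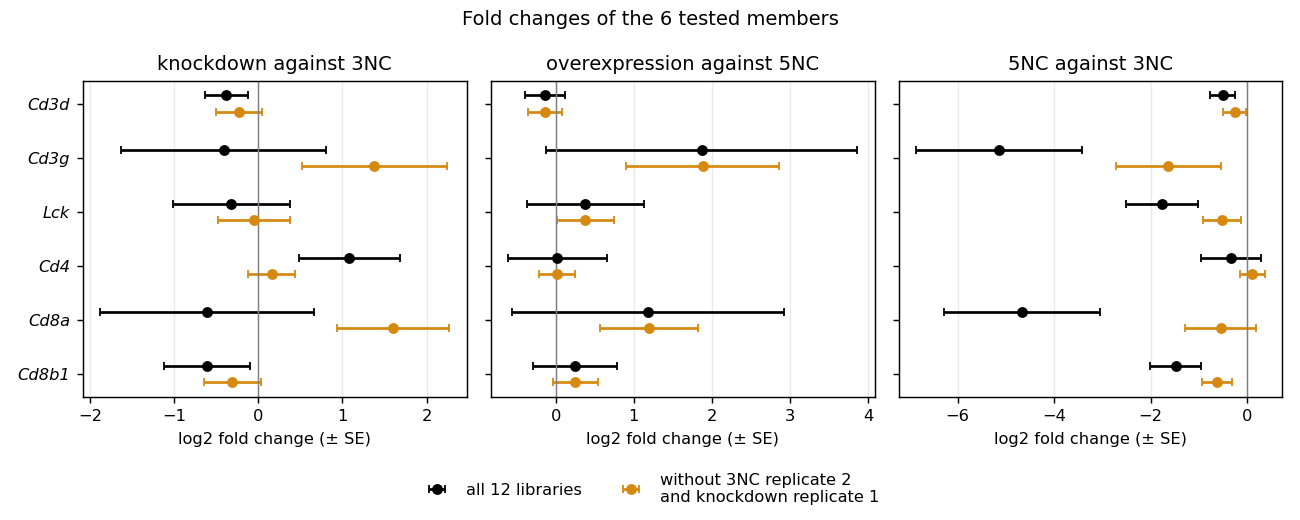
Log2 fold changes (points) with their standard errors (bars) for the 6 tested genes in 3 comparisons, from all 12 libraries (black) and without 3NC replicate 2 and knockdown replicate 1 (orange); the x axes differ in scale. In the knockdown comparison Cd3g and Cd8a cross 0 when the 2 libraries are left out, and in the comparison of the controls they move from -5.14 and -4.67 to -1.63 and -0.55.

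Other genes of T cell signalling were compared with the members. Of 15 partners of the T cell receptor, 12 were highest in the 2 high libraries. They included the adaptor Lcp2 (19.6 and 16.3 CPM against 1.35 to 2.16 in the other 10) and the adaptor Lat (5.22 and 4.87 against 0.0624 to 0.844). Ptprc (94.8 and 71.7 against 2.12 to 6.91) is counted among the 12. It also belongs to the white blood cell list by which the 2 libraries were set apart above, so it adds nothing separate here. Cd247, the CD3 zeta chain, was at 4.6 and 5.31 CPM against 0.501 to 2.43, and Zap70, the kinase that binds the phosphorylated chains, at 4.6 and 5.94 against 1.35 to 3.09. The most abundant partners, Prkcq (139 to 239 CPM in the 10 libraries), Nck1 and Fyn, were near level. Of the 13 partners tested, edgeR called none, higher or lower, in the 3 comparisons of groups. DESeq2 called none of the 10 or 11, and limma on FPKM none of the 12, to which they gave a p. With edgeR, 0, 2 and 5 had an unadjusted p under 0.05 in the knockdown, overexpression and control comparison. Of all 16388 tested genes, 924, 1952 and 1763 had such a p. The 13 partners had a median log2 fold change of -1.02 in 5NC against 3NC, beside -0.022 for all genes and -1.62 for the members. Without the 2 high libraries these medians were -0.07, 0.014 and -0.54.

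Of 13 further T cell genes, 10 were highest in the 2 libraries, among them the costimulator Icos at 9.94 and 6.39 CPM against 0.0675 to 0.529, Cd6 and Ctla4. Tcf7, the most abundant, was at 9.13 and 10.2 CPM against 6.89 to 10.2 and so did not separate, nor did Ubash3a, at 5.1 and 9.74 against 4.27 to 10.7. Skap1 was at 3.73 and 6.01 against 1.27 to 3.17. Of the 8 of these genes that were tested, edgeR called none in the 3 comparisons. At an unadjusted p under 0.05 there were 0, 0 and 3, beside 924, 1952 and 1763 of all 16388 tested genes. DESeq2 called none of the 6 to 8 to which it gave a p. Without the 2 high libraries edgeR called 1, Ubash3a, lower in 5NC than in 3NC (-1.02, adjusted p = 0.0295). This gene did not follow the 2 high libraries, and the number of all genes called in that setting is given with the alternatives below. The median of this list in that comparison went from -0.87 to -0.22. The constant regions of the T cell receptor (Trac, Trbc1, Trbc2, Trdc) and of antibodies (Ighm, Ighd, Igkc, Iglc1) had no row under these symbols and so were not analysed here.

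The list of NK and cytotoxic cells had summed CPM of 314 in 3NC replicate 2, 138.5 in knockdown replicate 1 and 2.308 to 10.74 elsewhere. All 12 of its genes were highest in the 2 libraries. edgeR called none of the 6 tested in the 3 comparisons. At an unadjusted p under 0.05 there were 0, 0 and 6, beside 924, 1952 and 1763 of all 16388 tested genes. DESeq2 gave a p to 1 of these genes, Ctsw, and called it between the controls. The number of all genes that DESeq2 called there is given with the alternatives below. Ctsw was at 9.2 CPM in 3NC replicate 2, 4.55 CPM in knockdown replicate 1 and at most 1.01 CPM elsewhere. Ccl5, a chemokine of activated T and NK cells, was at 79.9 and 58.5 CPM against 0.716 to 4.19. Ncr1, which defines NK cells, had 8 and 6 reads and at most 2 elsewhere. The median log2 fold change of its 6 tested genes in 5NC against 3NC was -5.01, and -0.88 without the 2 high libraries. In knockdown against 3NC all 6 had a negative estimate (median -0.77), and all 6 a positive one without the 2 libraries (median 1.31). In overexpression against 5NC all 6 were positive, with medians of 1.02 and 1.01. The list summed to 7.431, 3.53 and 3.411 CPM in overexpression replicates 1 to 3 and to 2.308, 2.955 and 2.433 CPM in 5NC. Replicate 1 thus gave much of the difference. Outside the 2 high libraries the tested genes other than Ccl5 had at most 20 reads, so their estimates rest on groups in which they are high. Genes that vary together across libraries do not give separate observations of a sign.

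B cell genes were less uniform. Of 12 partners of the B cell receptor 5 were highest in the 2 libraries, including Pik3ap1 and the kinases Lyn and Syk, which macrophages also use. The 2 most abundant partners, Cd81 and Plcg2, were at 66.7 and 49.6 CPM and at 15.3 and 21 CPM in 3NC replicate 2 and knockdown replicate 1, against 39.8 to 53.9 and 8.81 to 17.8 elsewhere. Of 9 genes of B cell identity 1 was, Spib. edgeR called none of the 10 partners and 7 identity genes tested. At an unadjusted p under 0.05 there were 1 partner (between the controls) and 3, 1 and 1 identity genes in the 3 comparisons. Of all 16388 tested genes, 924, 1952 and 1763 had such a p. DESeq2 called Jchain, 1 of 16 genes in all, in the knockdown comparison (edgeR estimate 3.57, adjusted p = 0.747), with 1421 reads in knockdown replicate 1 and at most 274 in any other library. It called Pax5, 1 of 328, in the overexpression comparison (edgeR estimate 0.67, adjusted p = 0.107). The identity list summed to 139.6 CPM in knockdown replicate 1 and to 59.95 and 49.29 CPM in the other knockdown libraries, against 27.3 to 39.58 CPM in the 9 libraries of the other groups, 3NC replicate 2 included (37.6 CPM). Jchain alone gave 89.8 CPM of the first sum. Without it the other 8 genes summed to 49.75, 41.74 and 40.11 CPM in the knockdown libraries and to 26.03 to 36.43 CPM in the other 9. The knockdown libraries were the highest either way, but how many of all genes show this order was not counted. Against 3NC alone, 811 of 16388 tested genes were higher in each knockdown library. Most abundant of the 8 were Pax5, Cd37 and Fcrla (mean 12.1, 10.9 and 6.57 CPM), which were read in every library. Whether this sum follows B cells was not tested. In knockdown against 3NC all 7 tested identity genes had a positive estimate (median 0.25, range 0.05 to 3.57), as did all 6 tested without the 2 high libraries (median 0.3), beside -0.018 and -0.017 for all genes, and edgeR called none of them. Cd37 was at 14.4 CPM in knockdown replicate 1 and 10.3 CPM in 3NC replicate 2, against 7.54 to 12.8 elsewhere. Pax5, the B cell regulator, was at 6.82 to 15.4 CPM in the 10 libraries, which held at most 4 reads of Cd79a. The macrophage list stood at 677.9 and 804.5 CPM against 138.4 to 195.1. The neutrophil list reached 24.11 and 12.77 CPM, and also 19.07 CPM in overexpression replicate 1, against 0.238 to 5.277 in the others. No macrophage, neutrophil, epididymis or testis gene was called by edgeR in the 3 comparisons. In the overexpression comparison DESeq2 called 3 epididymis genes (Crisp1, Spink8 and Rnase9) and limma on FPKM called 1 of the list. Without the 2 high libraries edgeR called Crisp1 (-9.6, adjusted p = 0.0168) and Spink8 (-4.56, adjusted p = 0.0365) lower there, and the epididymis list summed to 0.7976 to 284.6 CPM with its highest value in 5NC replicate 2. Of the red blood cell list, Hbb-bs and Hbb-bt, beta-globin copies that can share reads, were called higher in the overexpression group (7.89 and 5.56, edgeR adjusted p = 0.000605 and 0.0492) and lower in 5NC against 3NC (-8.47 and -6.46, adjusted p = 0.000336 and 0.0284). The part of any of these cells in the levels of the members was not tested.

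**Figure D4:**
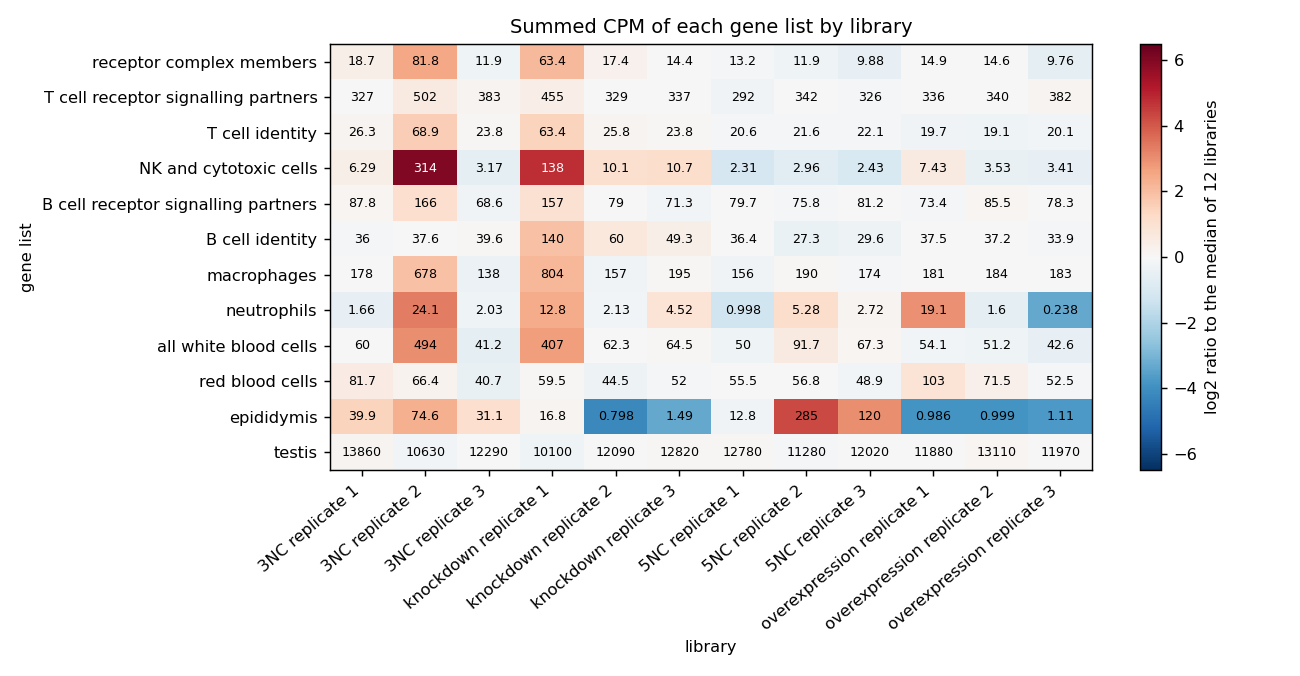
Summed CPM of each gene list (rows) in each library (columns), printed in the cells, with colour giving the log2 ratio to the median of the 12 libraries. The members, T cell, cytotoxic, macrophage and white blood cell lists are high in 3NC replicate 2 and knockdown replicate 1, where the sum of the testis list is lowest. The B cell identity list is highest in the 3 knockdown libraries (139.6, 59.95 and 49.29 CPM, with Jchain giving 89.8 CPM of the first). How many of all genes show that order was not counted.

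Across the 12 libraries, which share the 2 high ones, Cd3g correlated with Cd8a at r = 0.99 and with Cd3e at 0.98 (log2 CPM), and Cd8a with Cd8b1 at 0.85. Across the other 10 the values were 0.95, 0.9 and -0.09. Cd3d and Lck were at 0.85 and 0.82. Against the mean of the other tested members, Cd3g was at 0.98 and 0.81, Lck at 0.96 and 0.68, Cd8a at 0.96 and 0.6, Cd8b1 at 0.88 and 0.21, Cd3d at 0.71 and 0.4 and Cd4 at 0.76 and -0.01. These describe libraries with few reads per gene. The 5 other genes with the pattern most like the mean of the 6 tested members over 12 libraries were Ccl5 (r = 0.993), Grk2 (0.991), Lsp1 (0.989), B4galt5 (0.985) and Il2rg (0.985). Over the 10 libraries they were Pknox2 (0.939), Zfp592 (0.934), Cdh24 (0.93), Clip3 (0.93) and Npb (0.927), so the 2 lists had no gene in common.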

How the data were processed

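RNA was extracted from testis and, per the study's methods, enriched for messenger RNA with oligo(dT). The authors deposited a table of estimated counts per gene (unscaled, about 12% of genes fractional) and FPKM values, which they computed, on build mm10 per the labels. The sharing of reads among transcripts is not stated. Another 18 per-sample columns, of other groups, and 14 columns of the authors' means were not used. Groups came from the sample titles.

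Estimated counts were rounded. Genes were filtered with filterByExpr, libraries scaled by TMM, and 4 groups of 12 libraries fitted at once with edgeR 4.0.16 (R 4.3.3, quasi-likelihood test). The biological coefficient of variation was 22.9%, with 8 residual degrees of freedom. Benjamini-Hochberg adjustment ran over 16388 genes, with a threshold of 0.05. Depth was 12719699 to 15771655 estimated reads. Intervals of reads and of ratios between libraries cover counting error only, and those of fold changes come from the edgeR fit. Correlations used log2(CPM + 0.5).

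The members and lists were chosen with earlier results of these data known. The rule for named genes took all members, from other lists the genes past the threshold and the 3 of highest mean CPM, and the 5 genes most like the members. Of these, lists of other tissues and cell types are given as sums where no result turned on a gene. Ptprc, Lcp2, Lat, Cd247, Zap70, Icos, Cd6, Ctla4, Ncr1, Lyn, Syk, Spib, Ctsw, Pou2af1, C1qa to C1qc, Ebf1, Cr2, Fcrla, Klrb1c, Eomes, Star and Sox9 were named after their values were seen. The alternatives were RLE size factors, no filter, a replicate block, only the libraries compared, DESeq2 1.42.0, limma 3.58.1 on log2(FPKM + 0.1) and with quality weights, the study's thresholds, and libraries left out. The scripts were tested on simulated data.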

Additional observations from a re-analysis of the deposited data

How the results depend on the processing

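No member that had a test was called under any of the alternatives. Cd3g and Cd8a had no p with DESeq2, and did not pass the filter with only the libraries compared in overexpression against 5NC and 5NC against 3NC. Cd79a had a test only with no filter. By contrast, the number of genes called in all moved. Against 0 for knockdown against 3NC, DESeq2 called 16, and leaving out 1 library gave 0 to 12. Against 51 for overexpression against 5NC, the study's thresholds gave 5, the replicate block 21, only the libraries compared 107, DESeq2 328, limma on FPKM 82, voom with quality weights 4582, leaving out the 2 libraries that stand apart 159, and leaving out 1 library 9 to 87. Against 21 for 5NC against 3NC, these gave 3, 5, 7, 171 (DESeq2), 82 (voom), 45 (2 libraries out) and 3 to 35. Against 4 for the difference, they gave 2 (thresholds), 2 (block), 42 (DESeq2), 16 (voom) and 2 to 10. The cause was not tested.

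Of the member estimates, 11 of 182 under other settings and 15 of 288 with 1 library left out had the opposite sign. In knockdown against 3NC, Cd3g turned to 0.15 (block), 0.61 (limma on FPKM), 0.71 (voom) and 1.38 (2 libraries out), and Cd8a to 0.5, 0.97 and 1.6 under the last 3. Cd3d turned to 0.17 (voom) and Cd4 to -0.06 (limma on FPKM) in overexpression against 5NC, and with 2 libraries out Cd4 turned to 0.11 in 5NC against 3NC and Cd8a to 0.41 in the difference. With 1 library left out, the knockdown comparison ranged from -2.13 to 3.1 for Cd3g, -2.52 to 3.51 for Cd8a, -0.28 to 1.52 for Cd4, -1.16 to 0.25 for Cd8b1 and -1.29 to 0.91 for Lck. The overexpression comparison ranged from -0.27 to 0.02 for Cd3d and -0.02 to 0.05 for Cd4, and the controls from -0.55 to 0.11 for Cd4. The difference ranged from -0.47 to 0.01 for Cd3d, -4 to 1.23 for Cd3g, -0.31 to 1.5 for Cd4, -3.7 to 2.33 for Cd8a and -1.67 to 0.53 for Lck. Without 3NC replicate 2, Cd3g was at 3.1 and Cd8a at 3.51 in the knockdown comparison, and without knockdown replicate 1 Cd4 was at -0.28.

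Same-numbered libraries correlated at -0.707 to 0.443 in their deviations from the group means, with 6 of 18 pairs over 0.1, so the numbers were not taken as pairs. Only the libraries compared could not be applied to the difference. Depth limits Cd3e, Cd79a and Cd79b, which had at most 7 reads outside the 2 high libraries.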
